A study of Mus musculus with 13 samples.

Results

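The genes of glucose uptake, glycolysis, the pentose phosphate pathway, amino acid transport and serine and one-carbon metabolism were followed in mouse CD4+ T cells, taken from a donor strain and reacting against the host they were injected into. The list named 41 genes by symbol, from the glucose transporter Slc2a1 to the folate enzyme Mthfd2, and was grouped into 9 pathway steps. A gene was read from the probe set that the array annotation assigned to its symbol alone, taking the one with the highest mean over all arrays. This gave values for 36 of the 41 genes, out of 22180 genes in the series. Aldoa and Tkt had only probe sets shared with another symbol, Gpi1, Eno1 and G6pdx had no probe set under those symbols, and these 5 were not analysed here.

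A T cell that leaves its resting state takes up more glucose and amino acids and converts much of the glucose to lactate even when oxygen is present. Glucose enters through SLC2A transporters, is trapped and split in upper glycolysis and yields ATP and pyruvate in lower glycolysis. Side branches feed the pentose phosphate pathway, which makes NADPH and ribose, and serine synthesis, which supplies carbon units for nucleotides through the folate enzymes. CD98, the pairing of a SLC3A2 heavy chain with the SLC7A5 light chain, imports leucine and other large amino acids.

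Splenocytes of C57Bl/6 mice carrying the division dye CFSE were injected into B6D2F1 hosts, a transfer that starts graft-versus-host disease, and all mice were 10 to 12 weeks old. Hosts received Cl-BBQ at 10 mg/kg on days 0 to 2 (5 arrays), TCDD at 15 µg/kg on day 0 (4 arrays) or vehicle on days 0 to 2 (4 arrays), all intraperitoneally. On day 3, at 72 h, CD4+ cells from spleen and lymph node that had divided at least 2 times were isolated with beads and sorted. TCDD (dioxin) and Cl-BBQ both bind AhR, the aryl hydrocarbon receptor, which enters the nucleus when bound and switches on genes such as Cyp1a1. The 2 ligands differed in dose and schedule, and TCDD also differed from vehicle in treatment days. The whole animal was exposed, and the sort did not separate regulatory from other CD4+ cells. Values are log2 expression per probe set after RMA, so a difference of 1 is a 2-fold difference, and levels of different genes are not compared.

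Array medians lay between 4.27 and 4.33, and the number of arrays limits the precision. The floor for testing was 4.31, the median over all probe sets and arrays. It was exceeded on 4 arrays or more by all 36 genes and by 12710 genes in all, which were tested together in 1 limma model. Genes with a Benjamini-Hochberg adjusted p under 0.05 over those 12710 were called. An unadjusted limma p under 0.05 was far more common. It was found for 2924 of the 12710 with Cl-BBQ, 2284 with TCDD and 815 between the ligands. The unadjusted counts given below are to be read beside these. The CD4+ identity held on the arrays, with Cd4 between 10.27 and 10.68 and Cd3e between 11.79 and 12.22, while markers of other cells were partly present. The CD4 T cell markers were not level: the mean over 7 was 11.28 to 11.35 with Cl-BBQ, 11.28 to 11.33 with TCDD and 10.98 to 11.24 with vehicle. All 7 differences from vehicle were positive with both ligands, and 1 was called with each (14.3%, against 5.31% of all tested genes called higher with Cl-BBQ and 3.21% with TCDD). Of 7 measured B cell markers 2 (Ms4a1 and Ebf1), and of 10 myeloid markers 4 (Lyz2, Cd14, Adgre1 and Itgax), stayed below the floor on every array. Above it on every array were Pax5, Cd79b, Cd68, the natural killer marker Klrb1c and the CD8 T cell marker Cd8b1. Cd68 lay at 6.97 to 7.38 with Cl-BBQ, 6.82 to 7.80 with TCDD and 6.13 to 6.80 with vehicle. Cd8b1 lay at 6.15 to 7.35 with Cl-BBQ, 6.14 to 6.81 with TCDD and 6.52 to 6.85 with vehicle. The mean over 10 myeloid marker genes was 3.93 to 4.16 with Cl-BBQ, 3.92 to 4.26 with TCDD and 4.34 to 4.52 with vehicle. That of 7 B cell markers was 4.10 to 4.30, 3.99 to 4.27 and 4.26 to 4.50 in the same order of groups, and in these lists Cd22 and Cybb fell and Cd68 rose with both ligands. Cd22 lay at 3.85 to 4.29 with Cl-BBQ, 3.71 to 4.22 with TCDD and 5.89 to 6.54 with vehicle. The mean of Cd8a and Cd8b1, neither of them called by limma and 1 at an unadjusted p under 0.05 with each ligand, was 5.66 to 6.12 with Cl-BBQ, 5.34 to 6.01 with TCDD and 5.28 to 5.55 with vehicle. That of 4 natural killer markers was 4.13 to 4.68 with Cl-BBQ, 4.16 to 4.48 with TCDD and 4.39 to 4.58 with vehicle. Eomes was too low to be tested, and of the 3 tested none was called by limma and 1 had an unadjusted p under 0.05 with each ligand. The part of such cells in the results below was not tested, and in sorted bulk cells fewer cells of a type and less RNA per cell cannot be told apart. Division genes moved with both ligands: each of 18 tested G2 and M phase genes fell, with an array mean of 6.65 to 6.87 with Cl-BBQ, 7.03 to 7.18 with TCDD and 8.04 to 8.42 with vehicle. Their part in the results below was not tested either.

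Both glucose transporter genes of the list rose with both ligands, while of its glycolytic enzymes only Aldoc was called, and only with Cl-BBQ. Of the 36 genes, 8 were called with Cl-BBQ, 5 higher and 3 lower, and 6 with TCDD, 4 higher and 2 lower. Slc2a1, Slc2a3, Slc3a2 and Got1 rose and Slc7a1 and Psat1 fell in both comparisons, which share the 4 vehicle arrays, and Cl-BBQ added a rise of Aldoc and a fall of Slc7a5. These 8 of 36 are 22.2%, against a background of 11.3% of all tested genes called with Cl-BBQ, and the 6 with TCDD are 16.7%, against 6.71%. Every called difference was small, between 1.27-fold and 1.74-fold. The median log2 difference of the 36 was -0.10 with Cl-BBQ and -0.06 with TCDD, against -0.01 and 0.00 over all tested genes. No gene of the list was called between Cl-BBQ and TCDD by limma, where 0.0236% of all tested genes were called. An unadjusted p under 0.05 was found for 4 of the 36, and for 815 of all 12710 tested genes.

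**Figure D1:**
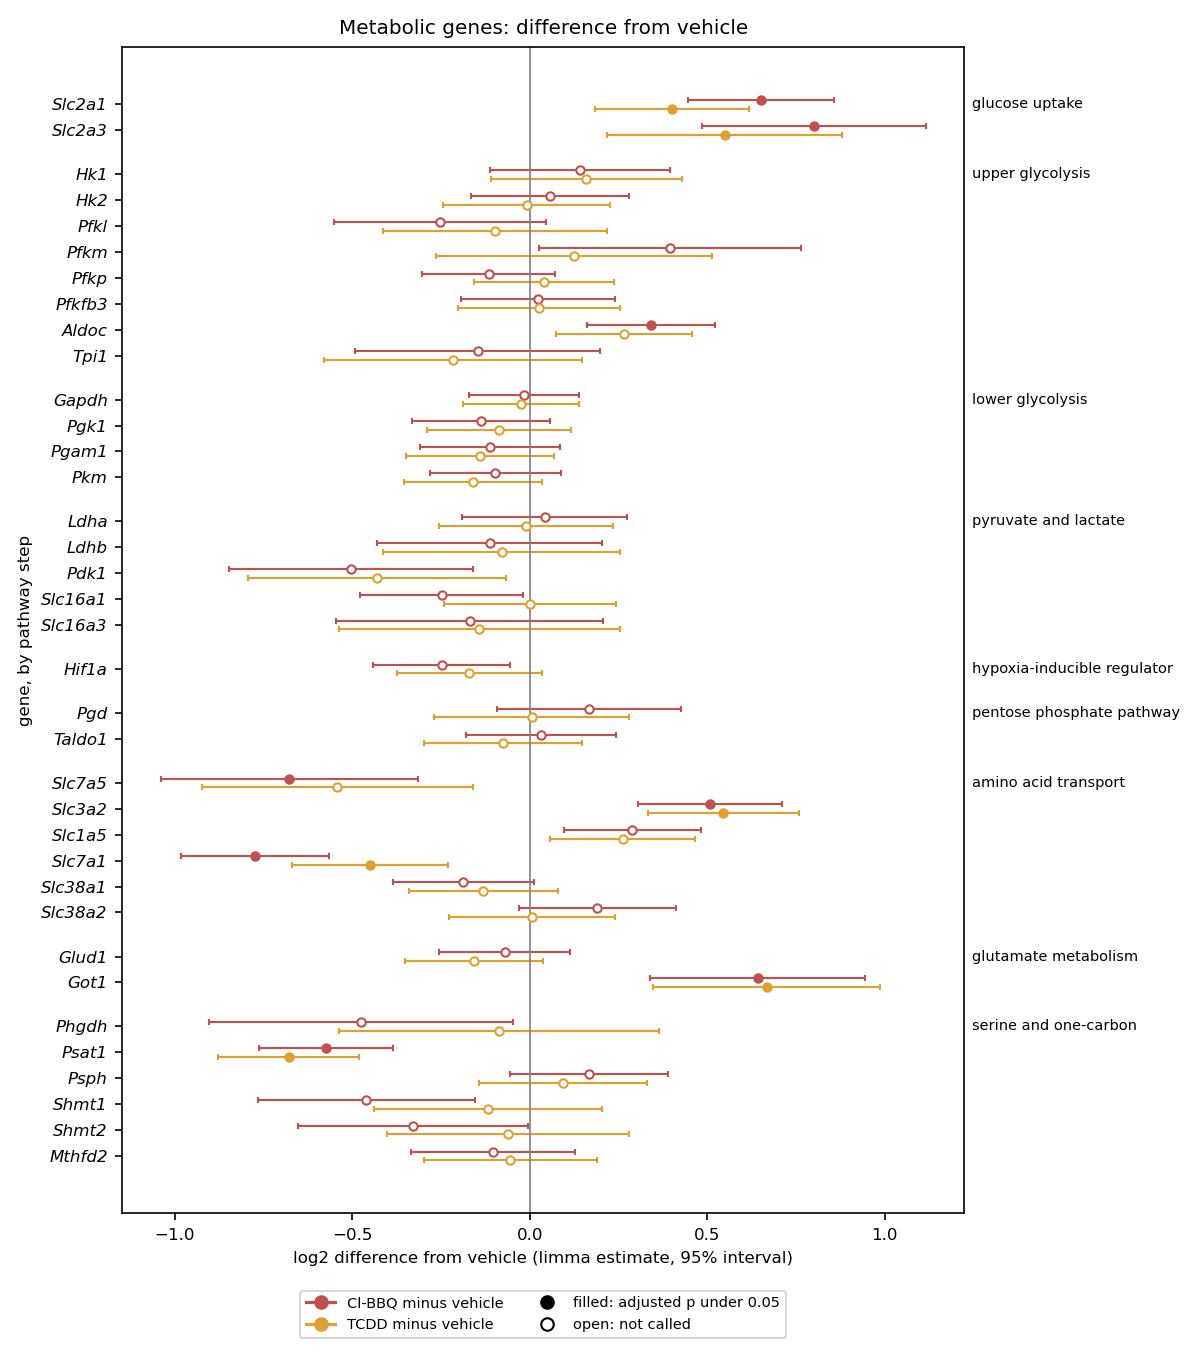
Log2 difference from vehicle of the 36 genes, grouped by pathway step down the page, with Cl-BBQ above TCDD for each gene; points are limma estimates, bars 95% intervals, and filled points have an adjusted p under 0.05. The filled points are the 8 genes called with Cl-BBQ and the 6 called with TCDD, and the other glycolytic enzymes have open points, with Pfkm at 0.40 with Cl-BBQ the farthest from 0.

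Promoter sequences are shown for the called genes with both ligands that had a window in the RefSeq promoter table of GRCm38.p6, since these are the genes that moved together under 2 AhR ligands. Each is the 250 bases before an annotated start, 5′ to 3′ on the gene's strand: Slc2a1 at chr4:119108495-119108744 on the plus strand, Slc3a2 at chr19:8713898-8714147 on the minus strand, Slc7a1 at chr5:148399905-148400154 on the minus strand, Got1 at chr19:43524606-43524855 on the minus strand and Psat1 at chr19:15925060-15925309 on the minus strand. Capitals mark matches on either strand to the AhR response element core GCGTG, the hypoxia-inducible factor core ACGTG, which is also part of the E-box, or the ATF4 element TGATGNAA.
Slc2a1: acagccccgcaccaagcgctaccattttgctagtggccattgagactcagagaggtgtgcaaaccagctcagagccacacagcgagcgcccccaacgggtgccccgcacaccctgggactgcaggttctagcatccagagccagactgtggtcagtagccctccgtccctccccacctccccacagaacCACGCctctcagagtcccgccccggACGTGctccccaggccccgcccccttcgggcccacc
Slc3a2: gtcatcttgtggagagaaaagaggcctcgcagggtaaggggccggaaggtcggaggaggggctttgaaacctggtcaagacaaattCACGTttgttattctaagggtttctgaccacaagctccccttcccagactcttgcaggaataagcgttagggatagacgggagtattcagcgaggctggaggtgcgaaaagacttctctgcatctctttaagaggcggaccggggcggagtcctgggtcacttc
Slc7a1: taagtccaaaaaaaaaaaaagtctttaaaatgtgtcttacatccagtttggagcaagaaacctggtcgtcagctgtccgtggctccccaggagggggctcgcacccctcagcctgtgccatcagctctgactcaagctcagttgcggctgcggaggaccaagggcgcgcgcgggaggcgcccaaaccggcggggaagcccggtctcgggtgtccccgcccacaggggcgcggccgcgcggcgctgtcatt
Got1: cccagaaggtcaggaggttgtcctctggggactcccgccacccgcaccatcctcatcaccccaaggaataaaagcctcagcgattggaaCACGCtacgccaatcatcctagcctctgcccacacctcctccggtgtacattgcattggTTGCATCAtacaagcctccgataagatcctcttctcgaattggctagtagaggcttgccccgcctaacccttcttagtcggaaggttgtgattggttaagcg
Psat1: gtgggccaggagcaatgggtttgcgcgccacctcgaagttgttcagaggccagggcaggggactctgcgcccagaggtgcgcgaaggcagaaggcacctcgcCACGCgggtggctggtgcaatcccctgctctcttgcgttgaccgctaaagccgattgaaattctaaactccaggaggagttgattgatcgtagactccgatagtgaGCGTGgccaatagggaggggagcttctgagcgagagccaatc
The Slc2a1 window held 1 AhR core and 1 hypoxia core, and Psat1, which fell, held 2 AhR cores. Got1 held 1 AhR core and 1 ATF4 element, Slc3a2 held 1 hypoxia core within the capitals shown, and Slc7a1 held no match in this window. The AhR core was found in 17 of the 32 genes of the list with a window, which is 53.1%, against 43.3% of the 9993 tested genes with a window and 28.2% of all 27025 windows. The hypoxia core was in 12 of the 32, or 37.5%, against 21.5% of tested genes and 16.5% of all windows. The ATF4 element was in 1 of the 32, or 3.12%, against 2.06% and 3.53%. A match is a description of the letters and not a binding site.

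Glucose uptake, a step of only 2 genes here, was the one at which every measured gene rose. Slc2a6 and Slc2a8, of the same family, were placed with the further glucose genes below, and neither was called with either ligand. Slc2a1 encodes GLUT1, the main glucose transporter of activated T cells, and was at 8.35, 7.94, 8.01, 7.94 and 8.05 in the Cl-BBQ arrays, 7.91, 7.86, 7.72 and 7.74 in the TCDD arrays and 7.48, 7.42, 7.30 and 7.42 in the vehicle arrays. The 3 groups did not overlap: every Cl-BBQ array was above every TCDD array, and every TCDD array above every vehicle array. With Cl-BBQ it was 1.57-fold higher (log2 difference 0.65 ± 0.10 SE, adjusted p = 3.0e-04) and with TCDD 1.32-fold higher (0.40 ± 0.10, adjusted p = 0.027). Cl-BBQ minus TCDD was 0.25, with a 95% interval of 0.04 to 0.46, but missed the threshold over all genes (adjusted p = 0.67). A further Slc2a1 probe set, also above the floor, averaged 5.38 with Cl-BBQ, 5.40 with TCDD and 5.05 with vehicle, differences from vehicle of 0.33 and 0.34, so it put the 2 ligands level. The TCDD call was lost without TCDD replicate 1 or 2 or vehicle replicate 2, 3 or 4, with no filter on low values, and when the probe sets were averaged (adjusted p = 0.11, the highest of 23 alternatives, the lowest being 0.0067).

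Slc2a3, the gene of GLUT3, a high-affinity glucose transporter, was at 6.34, 5.91, 6.28, 5.79 and 5.70 in the Cl-BBQ arrays, 5.77, 5.80, 5.75 and 5.67 in the TCDD arrays and 5.39, 4.95, 5.46 and 5.01 in the vehicle arrays. All arrays of both ligand groups were above all vehicle arrays, and the Cl-BBQ arrays spread across and above the TCDD arrays. It was 1.74-fold higher with Cl-BBQ (log2 difference 0.80 ± 0.15 SE, adjusted p = 0.0018) and 1.46-fold higher with TCDD (0.55 ± 0.15, adjusted p = 0.048). The TCDD call was lost on leaving out any TCDD array, Cl-BBQ replicate 2 or vehicle replicate 1, 2 or 4. It was also lost with arrays centred on their medians, with quantile normalization and with no filter on low values. Over 23 alternatives its adjusted p ran between 0.013 and 0.14. Arrays of 1 group wholly above or below those of the other were found for 12.9% of all tested genes in the Cl-BBQ comparison and 13.6% in the TCDD comparison. In this list it was so for 8 genes with Cl-BBQ, 6 above and 2 below (6.08% and 6.8% of all tested genes), and for 7 with TCDD, 5 above and 2 below (6.31% and 7.28%).

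**Figure D2:**
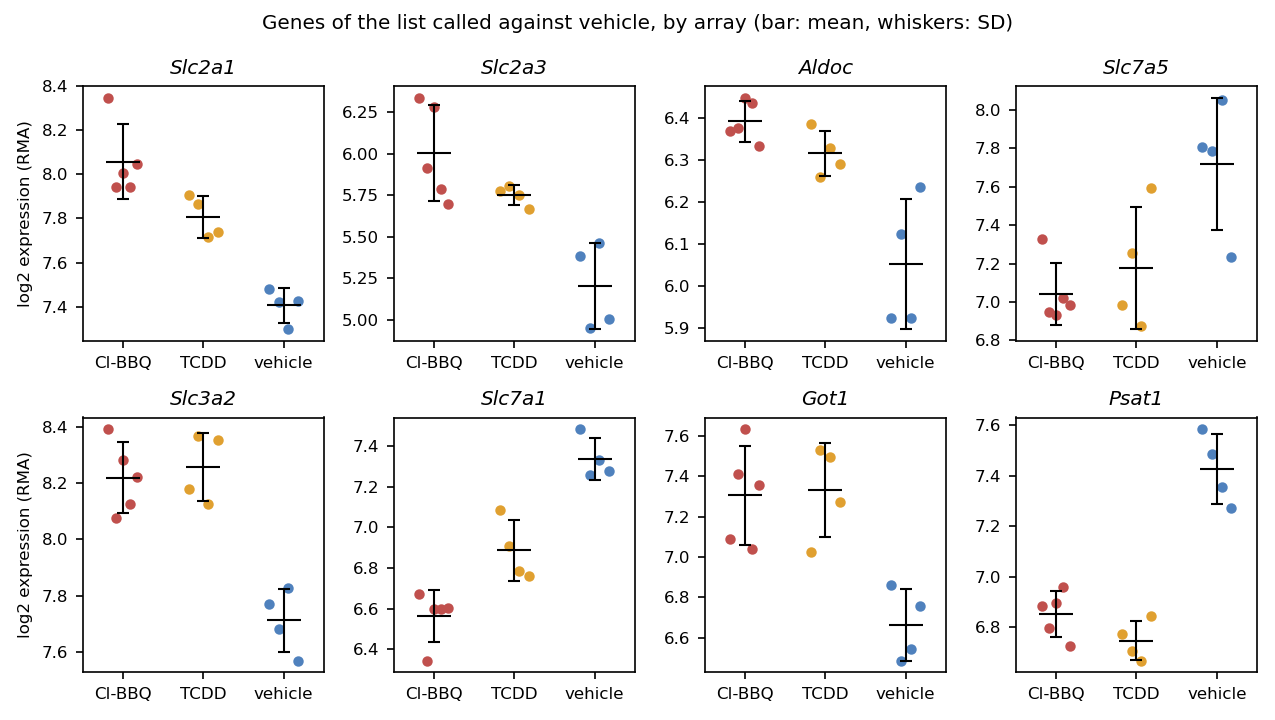
Log2 expression on each array of the 8 genes called against vehicle with at least 1 ligand, with Cl-BBQ (5 arrays), TCDD (4) and vehicle (4) from left to right; bars are group means and whiskers SD, and the vertical axes differ between genes and do not start at 0. The groups of Slc2a1 and Slc7a1 are ordered without overlap, whereas Slc3a2, Got1 and Psat1 lie at similar levels with both ligands.

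In upper glycolysis, where glucose is phosphorylated and cleaved, 1 of 8 measured genes rose with Cl-BBQ (12.5%, close to the 11.3% of all tested genes called) and none was called with TCDD by limma, with 1 at an unadjusted p under 0.05. The riser was Aldoc, an isoform of the aldolase that splits fructose bisphosphate, at 6.37, 6.38, 6.45, 6.44 and 6.33 in the Cl-BBQ arrays, 6.39, 6.26, 6.33 and 6.29 in the TCDD arrays and 5.92, 6.12, 5.92 and 6.24 in the vehicle arrays. All arrays of both ligand groups were above the vehicle arrays, and it was 1.27-fold higher with Cl-BBQ (log2 difference 0.34 ± 0.08 SE, adjusted p = 0.015), with 0.26 ± 0.09 for TCDD (adjusted p = 0.1). Of the arrays left out in turn, vehicle replicate 1 or vehicle replicate 3 ended the Cl-BBQ call, and with TCDD a call appeared without vehicle replicate 4 (adjusted p = 0.049).

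Hk2, the inducible hexokinase that phosphorylates incoming glucose, was at 5.00, 5.14, 5.28, 5.34 and 5.14 in the Cl-BBQ arrays, 5.14, 4.94, 5.34 and 5.04 in the TCDD arrays and 4.96, 5.25, 5.14 and 5.14 in the vehicle arrays. The 3 groups lay over each other, with log2 differences of 0.06 ± 0.10 for Cl-BBQ and -0.01 ± 0.11 for TCDD (adjusted p of 0.82 and 0.98). Its level was near the floor, and it dropped out with the floor set 1 log2 unit higher, so the lack of a difference is uncertain. The identical value 5.14 also stood on 4 arrays, from the Cl-BBQ and vehicle groups. Hk1, the constitutive hexokinase, differed by 0.14 and 0.16, and Tpi1, triose phosphate isomerase, by -0.15 and -0.22, without passing. Among the 3 genes of phosphofructokinase, the committing enzyme, Pfkp differed by -0.12 with Cl-BBQ and 0.04 with TCDD, Pfkl by -0.25 and -0.10, and Pfkm by 0.40 and 0.12, and none passed. Pfkm was called with Cl-BBQ without Cl-BBQ replicate 4 (adjusted p = 0.042). Its arrays lay near the floor, at 4.25 to 5.19, and it too dropped out with the higher floor. Pfkfb3, which makes the activator of phosphofructokinase, was flat, at 0.02 and 0.03.

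Lower glycolysis had no call among its 4 measured genes with either ligand by limma, and none had an unadjusted p under 0.05. Gapdh, the dehydrogenase that opens lower glycolysis, was at 12.27, 12.27, 12.31, 12.27 and 12.19 in the Cl-BBQ arrays, 12.31, 12.27, 12.27 and 12.16 in the TCDD arrays and 12.34, 12.27, 12.20 and 12.30 in the vehicle arrays. Its groups coincided, with 95% intervals of -0.17 to 0.14 for Cl-BBQ and -0.19 to 0.14 for TCDD on the log2 scale. The identical value 12.27 stood on 4 arrays across the groups. Gapdh has many processed copies in the mouse genome, 3 probe sets carried its symbol alone and 8 more shared it with another symbol, so its value is uncertain as a measure of the gene itself. Of those 3, the next brightest differed by -0.01 and -0.03.

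Pkm, the pyruvate kinase gene whose product makes the last ATP of the pathway, was at 10.39, 10.09, 10.36, 10.15 and 10.26 in the Cl-BBQ arrays, 10.25, 10.25, 10.12 and 10.13 in the TCDD arrays and 10.33, 10.40, 10.40 and 10.25 in the vehicle arrays. The groups overlapped, with differences of -0.10 ± 0.09 and -0.16 ± 0.09 (adjusted p of 0.57 and 0.4). Pgk1, a kinase forming ATP, and Pgam1, a mutase, lay -0.14 and -0.11 from vehicle with Cl-BBQ and -0.09 and -0.14 with TCDD, also without passing. A further Pgam1 probe set, also above the floor, gave -0.10 with Cl-BBQ and 0.18 with TCDD, so the direction of Pgam1 with TCDD is uncertain. Averaged over the 4 genes, the Cl-BBQ arrays lay between -0.15 and -0.02 from the vehicle mean, the TCDD arrays also between -0.15 and -0.02, and the vehicle arrays between -0.09 and 0.07.

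**Figure D3:**
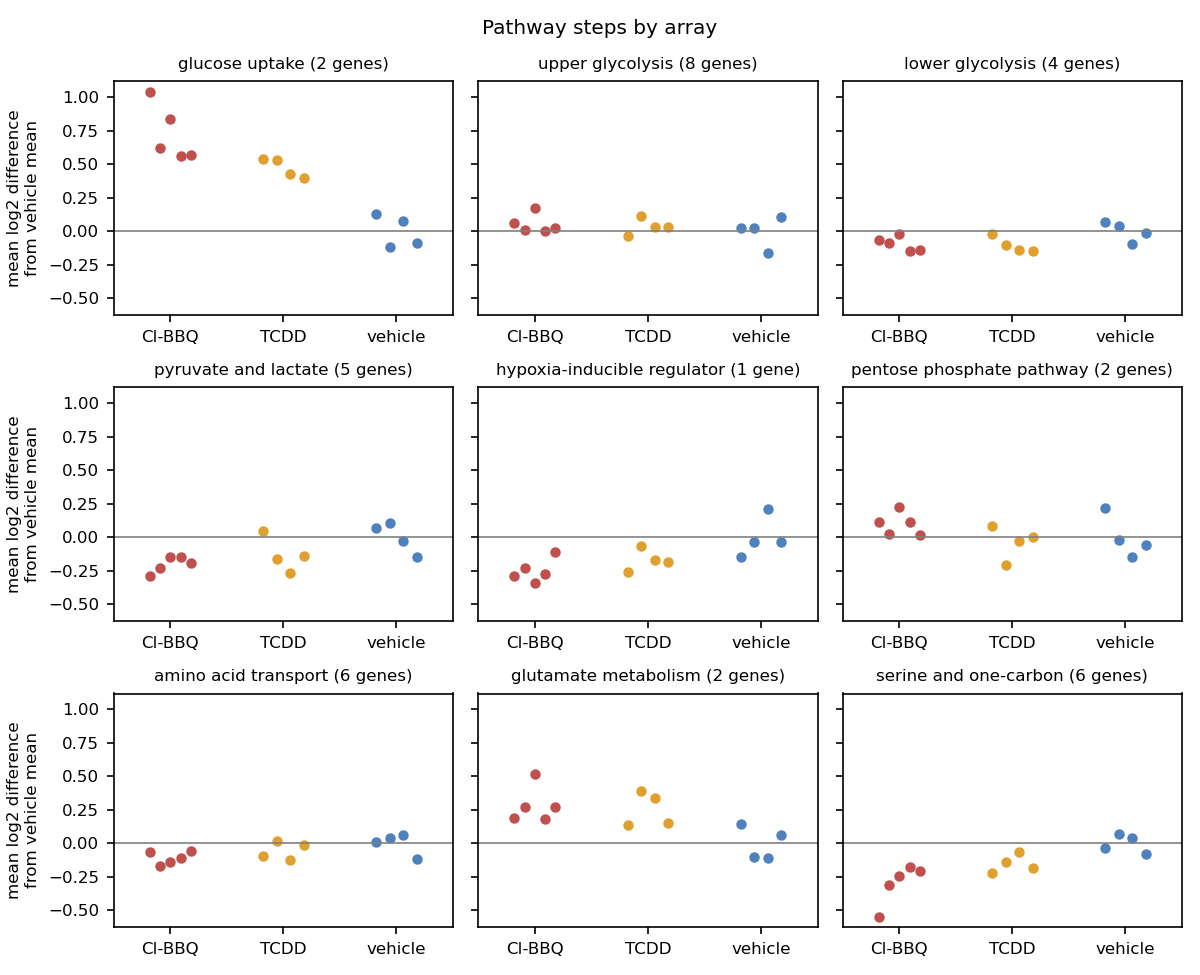
Mean log2 difference from the vehicle mean over the measured genes of each pathway step, 1 point per array, with Cl-BBQ, TCDD and vehicle from left to right and a shared vertical axis. Glucose uptake lies at 0.56 to 1.04 with Cl-BBQ and 0.40 to 0.54 with TCDD, above the vehicle arrays at -0.12 to 0.13, while the steps of glycolysis stay within 0.18 of 0.

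The genes that decide between lactate and mitochondrial use of pyruvate were not called with either ligand by limma, with 2 of 5 at an unadjusted p under 0.05 with Cl-BBQ and 1 with TCDD. Ldha, the lactate dehydrogenase subunit that favours lactate, was at 5.16, 4.98, 5.10, 5.38 and 5.06 in the Cl-BBQ arrays, 5.03, 5.17, 4.85 and 5.31 in the TCDD arrays and 5.14, 5.22, 5.02 and 5.01 in the vehicle arrays. These groups overlapped throughout, with differences of 0.04 ± 0.11 and -0.01 ± 0.11. The level of Ldha was near the floor, and it dropped out with the floor set 1 log2 unit higher, so the lack of a difference is uncertain. Ldhb, the subunit that favours pyruvate, differed by -0.11 and -0.08.

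Pdk1, the kinase that shuts pyruvate dehydrogenase, averaged 7.60 ± 0.25 with Cl-BBQ (SD, n = 5), 7.68 ± 0.33 with TCDD (SD, n = 4) and 8.11 ± 0.19 with vehicle (SD, n = 4). The difference was -0.50 ± 0.16 with Cl-BBQ (adjusted p = 0.061) and -0.43 ± 0.17 with TCDD (adjusted p = 0.18), neither passing. It was called with Cl-BBQ under 7 of 23 alternatives, among them without Cl-BBQ replicate 3, TCDD replicate 2, TCDD replicate 4 or vehicle replicate 1, with adjusted p between 0.022 and 0.17 over all alternatives. Its further probe set differed by -0.04 and -0.16. The monocarboxylate transporter genes Slc16a1, encoding MCT1, and Slc16a3, encoding the lactate exporter MCT4, differed by -0.25 and -0.17 with Cl-BBQ and 0.00 and -0.14 with TCDD, without passing.

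Hif1a, the oxygen-regulated factor that drives many glycolytic genes, was at 9.19, 9.25, 9.14, 9.21 and 9.37 in the Cl-BBQ arrays, 9.22, 9.42, 9.31 and 9.29 in the TCDD arrays and 9.33, 9.45, 9.69 and 9.45 in the vehicle arrays. Most arrays of both ligand groups lay below most vehicle arrays, but the groups overlapped, with -0.25 ± 0.09 for Cl-BBQ (adjusted p = 0.1) and -0.17 ± 0.10 for TCDD (adjusted p = 0.39). It was called with Cl-BBQ under 1 alternative, a trend in the spread with level (adjusted p = 0.044), and a further probe set gave 0.13 and 0.07. Of 9 tested targets of hypoxia-inducible factors, 1 rose with Cl-BBQ, the mitochondrial protein gene Higd1a (0.36 ± 0.11, adjusted p = 0.044), and none was called with TCDD by limma, none at an unadjusted p under 0.05 either. That 1 of 9 is 11.1%, close to the 11.3% of all tested genes called with Cl-BBQ. In the pentose phosphate pathway only Pgd, phosphogluconate dehydrogenase, and Taldo1, transaldolase, were measured, at 0.17 and 0.03 with Cl-BBQ and 0.01 and -0.07 with TCDD, and neither passed.

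Amino acid transport moved in both directions. With Cl-BBQ 1 of 6 genes rose and 2 fell, and with TCDD 1 rose and 1 fell, against a background of 5.31% higher and 6.03% lower with Cl-BBQ and 3.21% higher and 3.5% lower with TCDD. Both chains of CD98 passed the test, in opposite directions, with Cl-BBQ. Slc3a2, the heavy chain that carries several light chains to the surface, was at 8.39, 8.08, 8.28, 8.12 and 8.22 in the Cl-BBQ arrays, 8.18, 8.37, 8.13 and 8.35 in the TCDD arrays and 7.77, 7.68, 7.83 and 7.57 in the vehicle arrays. Every array of either ligand was above every vehicle array, and the 2 ligand groups overlapped. It was 1.42-fold higher with Cl-BBQ (log2 difference 0.51 ± 0.09 SE, adjusted p = 0.002) and 1.46-fold higher with TCDD (0.55 ± 0.10, adjusted p = 0.003), calls that held under all 23 alternatives in each comparison.

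Slc7a5, encoding LAT1, the light chain that imports leucine, was at 7.33, 6.95, 6.93, 7.02 and 6.98 in the Cl-BBQ arrays, 6.98, 7.25, 6.88 and 7.59 in the TCDD arrays and 7.80, 7.79, 8.05 and 7.23 in the vehicle arrays. The vehicle arrays were the highest except vehicle replicate 4, which lay within both ligand groups. The gene fell by 0.68 on the log2 scale with Cl-BBQ (-0.68 ± 0.17 SE, adjusted p = 0.016) and stood at -0.54 ± 0.18 with TCDD (adjusted p = 0.096). Of the arrays left out in turn, vehicle replicate 3 alone ended the Cl-BBQ call. With TCDD a call appeared without vehicle replicate 4 or TCDD replicate 4, with adjusted p down to 0.019.

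Slc7a1, the cationic transporter CAT1 that imports arginine and lysine, was at 6.67, 6.34, 6.60, 6.60 and 6.60 in the Cl-BBQ arrays, 7.09, 6.91, 6.79 and 6.76 in the TCDD arrays and 7.48, 7.26, 7.33 and 7.28 in the vehicle arrays. As with Slc2a1 the groups did not overlap, here with Cl-BBQ lowest and TCDD between it and vehicle. It was 1.71-fold lower with Cl-BBQ (log2 difference -0.77 ± 0.10 SE, adjusted p = 6.8e-05) and 1.37-fold lower with TCDD (-0.45 ± 0.10, adjusted p = 0.014). The TCDD call missed the threshold without vehicle replicate 1 (adjusted p = 0.052). Cl-BBQ minus TCDD was -0.32, with a 95% interval of -0.53 to -0.12 and an adjusted p of 0.53.

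The glutamine transporter genes were not called. Slc1a5, encoding ASCT2, averaged 9.79 ± 0.04 with Cl-BBQ (SD, n = 5), 9.77 ± 0.15 with TCDD (SD, n = 4) and 9.50 ± 0.12 with vehicle (SD, n = 4). The difference was 0.29 ± 0.09 with Cl-BBQ (adjusted p = 0.055), all 5 Cl-BBQ arrays lying above all vehicle arrays, and 0.26 ± 0.10 with TCDD (adjusted p = 0.14), and a further probe set gave 0.29 and 0.23. It was called with Cl-BBQ under 4 of 23 alternatives, among them without TCDD replicate 1 or 2, with adjusted p down to 0.015. Slc38a1 and Slc38a2, sodium-coupled carriers of small neutral amino acids, were at -0.19 and 0.19 with Cl-BBQ and -0.13 and 0.01 with TCDD. None of 11 further tested amino acid transporter genes was called with either ligand by limma, with 4 at an unadjusted p under 0.05 with Cl-BBQ and 2 with TCDD. Over all 12710 tested genes, 2924 and 2284 were at that unadjusted level.

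Got1 was the transaminase gene that rose. It encodes the cytosolic enzyme that exchanges amino groups between glutamate and aspartate, and was at 7.09, 7.41, 7.63, 7.04 and 7.36 in the Cl-BBQ arrays, 7.03, 7.53, 7.50 and 7.27 in the TCDD arrays and 6.86, 6.49, 6.55 and 6.76 in the vehicle arrays. Both ligand groups lay wholly above vehicle and overlapped each other. Got1 was 1.56-fold higher with Cl-BBQ (log2 difference 0.64 ± 0.14 SE, adjusted p = 0.0069) and 1.59-fold higher with TCDD (0.67 ± 0.15, adjusted p = 0.012), under all 23 alternatives in each comparison. Glud1, the mitochondrial glutamate dehydrogenase, was at -0.07 and -0.16, without passing. Of 5 further tested glutamine and glutamate genes, glutamine synthetase (Glul) rose by 0.35 with Cl-BBQ (adjusted p = 0.044) and Oat, ornithine aminotransferase, fell by 0.71 (adjusted p = 0.0093). These are 40% of a short list, against 11.3% of all tested genes called with Cl-BBQ. None of the 5 was called with TCDD by limma, none at an unadjusted p under 0.05 either, and Glul stood at -0.02.

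In serine and one-carbon metabolism 1 of 6 genes, Psat1, fell with each ligand and none rose, where 6.03% of all tested genes fell with Cl-BBQ and 3.5% with TCDD. A single gene is no result about the step. At an unadjusted limma p under 0.05 were 4 of the 6 with Cl-BBQ and 1 with TCDD, Psat1 among them. Differences were negative for 5 of the 6 with each ligand, with medians of -0.39 with Cl-BBQ and -0.07 with TCDD. Averaged over the 6 genes, the Cl-BBQ arrays lay between -0.55 and -0.17 from the vehicle mean, the TCDD arrays between -0.22 and -0.07 and the vehicle arrays between -0.08 and 0.07. The TCDD average came mostly from Psat1 at -0.68, the other genes lying between -0.12 and 0.09 with TCDD. Psat1, the transaminase in the middle of the serine synthesis pathway, was at 6.88, 6.80, 6.90, 6.96 and 6.72 in the Cl-BBQ arrays, 6.77, 6.71, 6.67 and 6.84 in the TCDD arrays and 7.58, 7.49, 7.36 and 7.27 in the vehicle arrays. All ligand arrays were below all vehicle arrays, with the 2 ligand groups overlapping. Psat1 was 1.49-fold lower with Cl-BBQ (log2 difference -0.57 ± 0.09 SE, adjusted p = 4.1e-04) and 1.6-fold lower with TCDD (-0.68 ± 0.09, adjusted p = 2.9e-04), under all 23 alternatives in each comparison. The enzymes on either side of it did not pass. Phgdh, the dehydrogenase that commits carbon to serine, was at 6.14, 7.00, 6.69, 6.82 and 6.85 in the Cl-BBQ arrays, 6.73, 7.06, 7.57 and 7.00 in the TCDD arrays and 6.84, 7.53, 7.38 and 6.96 in the vehicle arrays. The TCDD and vehicle arrays overlapped widely, while most Cl-BBQ arrays lay below the lowest vehicle array. Its differences were -0.48 ± 0.20 with Cl-BBQ and -0.09 ± 0.21 with TCDD. Over the alternatives the adjusted p with Cl-BBQ ran between 0.054 and 0.38. Psph, the phosphatase that completes serine, was at 0.17 and 0.09.

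Shmt2, the mitochondrial enzyme that takes a carbon unit from serine, was at 6.90, 7.21, 7.68, 7.57 and 7.52 in the Cl-BBQ arrays, 7.47, 7.91, 7.67 and 7.52 in the TCDD arrays and 7.86, 7.57, 7.78 and 7.61 in the vehicle arrays. The Cl-BBQ arrays reached lowest, but the groups overlapped, with -0.33 ± 0.15 for Cl-BBQ (adjusted p = 0.21) and -0.06 ± 0.16 for TCDD. Mthfd2, the mitochondrial folate enzyme known for its induction in dividing cells, was at 6.91, 7.22, 7.38, 7.41 and 7.28 in the Cl-BBQ arrays, 7.27, 7.29, 7.29 and 7.32 in the TCDD arrays and 7.17, 7.26, 7.52 and 7.42 in the vehicle arrays. Its groups overlapped, with -0.10 ± 0.11 and -0.05 ± 0.11 (adjusted p of 0.64 and 0.87), beside the fall of the division genes given above. Shmt1, the cytosolic counterpart of Shmt2, was -0.46 ± 0.14 with Cl-BBQ (adjusted p = 0.052), called under 8 of 23 alternatives, among them without Cl-BBQ replicate 4, Cl-BBQ replicate 5 or vehicle replicate 3. Its 4 TCDD arrays carried the identical value 5.84, and repeated values across arrays occurred in 8 of the 36 genes and in 39.6% of all tested genes. Hk1, Hk2, Gapdh and Slc16a1 also carried 1 value on 4 arrays, from different groups. The effect of such repeats on the spread and on the overlap of groups was not tested.

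Some further genes of serine and one-carbon metabolism fell. Of 11 further tested serine and one-carbon genes, 4 were called lower with Cl-BBQ (36.4%, against 6.03% of all tested genes) and 2 with TCDD (18.2%, against 3.5%). None was called higher. With Cl-BBQ 7 were not called and with TCDD 9, and 4 of the 11 differences were positive with each ligand. Tyms, thymidylate synthase, which makes the thymine nucleotide and is itself an S phase gene, fell by 1.23 with Cl-BBQ (adjusted p = 2.2e-05) and by 0.95 with TCDD (adjusted p = 7.0e-04). Mthfd1, the cytosolic trifunctional folate enzyme, fell by 0.81 and 0.85 (adjusted p of 0.0041 and 0.0074). With Cl-BBQ, Mthfd1l, its mitochondrial relative, fell by 0.68 and Sfxn1, a mitochondrial serine carrier, by 0.37 (adjusted p of 0.012 and 0.044). All 15 tested S phase genes fell with Cl-BBQ and 14 with TCDD, with medians of -1.01 and -0.93. The part of the S phase genes in these falls was not tested.

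**Figure D4:**
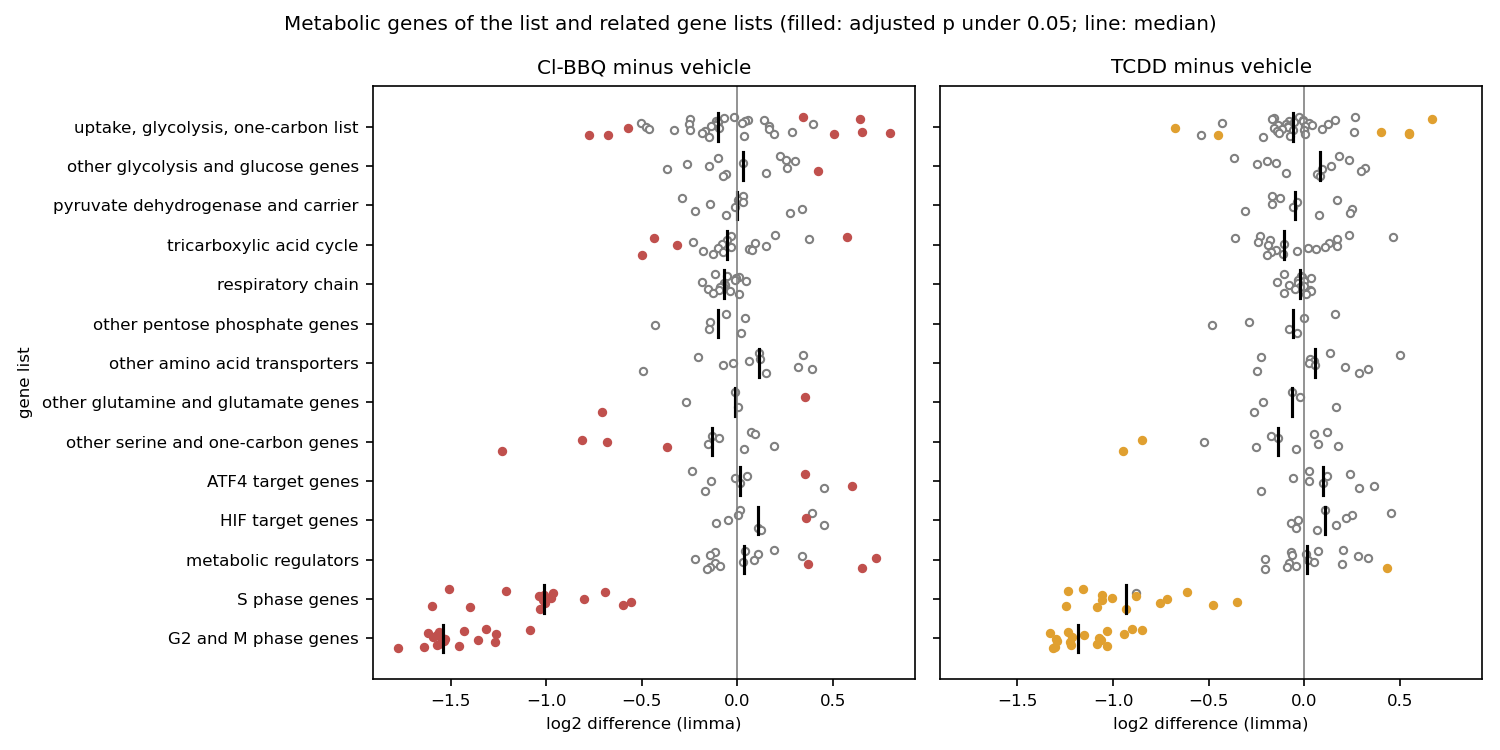
Log2 difference of every tested gene in the list and in 13 related lists, for Cl-BBQ minus vehicle on the left and TCDD minus vehicle on the right; filled points have an adjusted p under 0.05 and black lines are list medians. The lists of glycolysis, the mitochondria and transport have medians between -0.10 and 0.12, whereas the S phase and G2 and M phase lists have medians of -1.01 and -1.54 with Cl-BBQ and -0.93 and -1.18 with TCDD.

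Among the routes that follow glycolysis, calls were made in the tricarboxylic acid cycle with Cl-BBQ. None of 10 genes of pyruvate dehydrogenase and the mitochondrial pyruvate carrier, of 16 respiratory chain genes or of 6 further pentose phosphate genes was called with either ligand by limma, with 2, 1 and 1 at an unadjusted p under 0.05 with Cl-BBQ and 1, 0 and 1 with TCDD. The median log2 difference of the respiratory chain genes was -0.07 with Cl-BBQ and -0.02 with TCDD. In the tricarboxylic acid cycle, 1 of 19 genes rose with Cl-BBQ, Dlst, a subunit of oxoglutarate dehydrogenase (0.57 ± 0.13, adjusted p = 0.0097). Fh1, fumarase, Mdh1, the cytosolic malate dehydrogenase, and Suclg2, a succinyl-CoA ligase subunit, fell by 0.44, 0.32 and 0.50 (adjusted p of 0.0078, 0.011 and 0.026). The 4 called of 19 are 21.1%, against 11.3% of all tested genes. The list also held cytosolic relatives of the cycle enzymes, and Mdh1 among the called genes is 1 of them. With TCDD none of the 19 was called by limma, with 4 at an unadjusted p under 0.05. Of 13 further glucose genes, Pgm2, of the phosphoglucomutase family, rose by 0.42 with Cl-BBQ (adjusted p = 0.035), and none was called with TCDD by limma, with 3 at an unadjusted p under 0.05. That 1 of 13 is 7.69%, below the 11.3% of all tested genes.

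Among 16 tested regulators, 3 rose with Cl-BBQ (18.8%, against 5.31% of all tested genes) and 1 with TCDD (6.25%, against 3.21%). Txnip, an arrestin-family protein that restrains glucose uptake by removing GLUT1 from the surface, rose by 0.65 with Cl-BBQ (adjusted p = 9.3e-04) and by 0.44 with TCDD (adjusted p = 0.035), in the same samples as Slc2a1. Myc, the transcription factor that drives metabolic growth in activated T cells, rose by 0.73 with Cl-BBQ (adjusted p = 0.0027) and stood at 0.33 ± 0.15 with TCDD (adjusted p = 0.26). Srebf1, a regulator of lipid synthesis, rose by 0.37 with Cl-BBQ (adjusted p = 0.046). Of 9 tested genes of the ATF4 amino acid response, Atf4 itself and Eif4ebp1, a translation inhibitor, rose with Cl-BBQ by 0.35 and 0.60 (adjusted p of 0.022 and 0.049). These are 22.2%, against 11.3% of all tested genes called with Cl-BBQ. None of the 9 was called with TCDD by limma, with 1 at an unadjusted p under 0.05.

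Set directly against each other, the 2 ligand regimens differed by small amounts over the list, and no gene was called. The 36 differences Cl-BBQ minus TCDD ran from -0.39, for Phgdh, to 0.27, for Pfkm, and their 95% intervals all lay within 1 log2 unit of 0, from -0.82 to 0.64. The lowest adjusted p was 0.53, for Slc7a1. Groups were apart without overlap for Slc2a1, above, and Slc7a1, below, where 2.11% of all tested genes were so, 1.03% above and 1.08% below. Slc16a1 and Shmt1 were the other genes at an unadjusted p under 0.05, at -0.25 (95% interval -0.48 to -0.02) and -0.34 (-0.65 to -0.04). Both carried an identical value on 4 arrays, and the effect of this on their intervals was not tested. A miss of the threshold does not show that the regimens act alike, and dose and schedule differed.

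**Figure D5:**
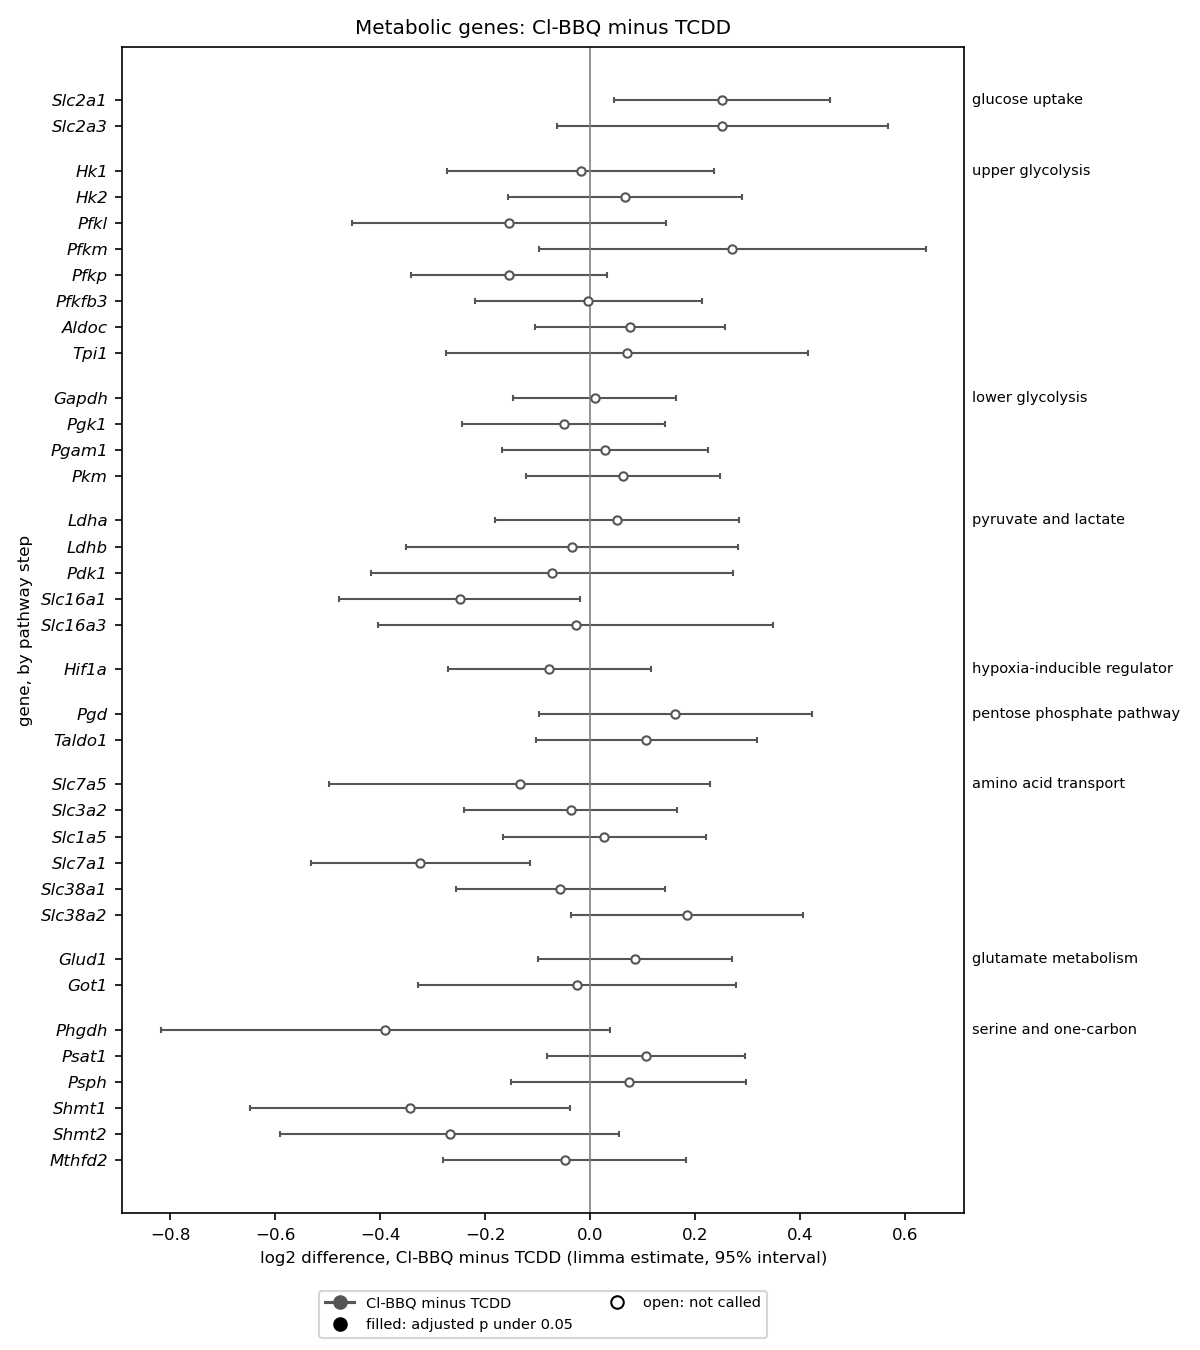
Log2 difference Cl-BBQ minus TCDD of the 36 genes by pathway step; points are limma estimates and bars 95% intervals, and all points are open because none had an adjusted p under 0.05. The intervals of Slc2a1, Slc16a1, Slc7a1 and Shmt1 do not reach 0.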

How the data were processed

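RNA was measured on 13 single-colour arrays. The deposited values were log2 expression for 41345 probe sets, made with RMA, per the submitters' processing notes, whose steps and software the labels do not describe. RMA usually includes quantile normalization, which hides a shift of all transcripts in 1 direction. Groups and replicate numbers came from the source labels, which call samples biological replicates. Probe sets with 1 symbol in the platform annotation (23521) were named, with symbols updated through the GRCm38.p6 gene table, and the one with the highest mean was kept per gene. Genes that exceeded the floor (4.31, the median over all values) on 4 arrays or more were tested with limma 3.58.1 (R 4.3.3): 3 group means, 10 residual and 4.22 prior degrees of freedom, two-sided, Benjamini-Hochberg over 12710 genes. The script was tested on simulated data. Array values are printed for called genes and for a set fixed in the design, and of each other list up to 4 called genes with the smallest adjusted p. The genes and lists were chosen with earlier results of these data known, and comparisons with vehicle share its arrays. Filters, probe set choice, scaling, spread models, array weights, fitted groups, a replicate block and leaving out each array were tried as alternatives.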

Additional observations from a re-analysis of the deposited data

Results flagged for a closer look

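Of 108 sets of 4 or 5 values (36 genes in 3 groups), 8 held an array far from the others of its group by Dixon's test at its 95% limit, which chance alone passes in about 1 set in 20. Cl-BBQ replicate 1 had Slc2a1 at 8.35, where the other Cl-BBQ arrays lay at 7.94 to 8.05, and Slc7a5 at 7.33, against 6.93 to 7.02. Cl-BBQ replicate 2 had Slc7a1 at 6.34, against 6.60 to 6.67. Pgk1 stood at 9.83 in Cl-BBQ replicate 3, against 9.64 to 9.68, and Pfkm at 4.46 in Cl-BBQ replicate 4, against 4.99 to 5.19. TCDD replicate 2 had Hk1 at 7.04, against 6.54 to 6.62, and Pgd at 7.99, against 8.28 to 8.33. For Hk1, TCDD replicates 3 and 4 carried the identical value 6.62. Vehicle replicate 4 had Psph at 7.19, against 7.53 to 7.60. The calls of Slc2a1 and Slc7a1 with Cl-BBQ held without these arrays, as did that of Slc7a5.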

How the results depend on the processing

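With 1 array left out at a time, the genes of the list called numbered 7 to 10 with Cl-BBQ, 4 to 6 with TCDD and 0 between the ligands. Their median log2 difference ran from -0.12 to -0.028 with Cl-BBQ, the value of -0.028 without vehicle replicate 1, from -0.06 to -0.01 with TCDD and from -0.02 to 0.03 between the ligands. The other settings called 7 to 11 genes with Cl-BBQ and 4 to 6 with TCDD. No called difference reversed. Over 108 differences and up to 23 alternatives each, 24 calls were lost and 24 gained. Same-numbered arrays of different groups had deviations correlated between -0.06 and 0.08, so the numbers were not used as pairs. With a replicate block, 7 genes were called with Cl-BBQ and 6 with TCDD: Aldoc and Slc7a5 missed the threshold with Cl-BBQ (adjusted p of 0.058 and 0.083) and Shmt1 passed it (0.011). Between the ligands, 0 to 7 of all tested genes were called by limma across settings.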
